A study of Mus musculus with 16 samples.

Results

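The data compare spermatids with MI spermatocytes of mice with a male germ cell knockout of Tex10, to describe how the haploid transcript program ran in the knockout. The knockout (KO) mice carried Tex10f/-; Stra8iCre, that is, 1 floxed and 1 null copy of Tex10 together with a Cre recombinase driven by the Stra8 promoter, which is active in male germ cells from the spermatogonial stage on. The control mice were wild type (WT), and the labels give them no Cre. All mice were C57BL/6J males of 8 weeks, and the cells were sorted from testis by a procedure the labels do not describe. Members were chosen by sample title: 2 KO spermatid libraries (titled KO_RS) and 2 KO MI spermatocyte libraries (titled KO_sctMI), 4 of 16 libraries in all. The corresponding 2 WT spermatid and 2 WT MI spermatocyte libraries served to test whether the step differed between genotypes. Nothing in the labels says whether replicate libraries derive from different mice, so the p-values measure only the spread between these libraries, which may be technical.

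MI spermatocytes are cells in the first meiotic division, and spermatids are the haploid cells that follow the second. In spermatids, transcription turns to genes for the acrosome, the vesicle that helps the sperm enter the egg, for the tail, and for the small basic proteins that pack the nucleus. Histones give way first to transition proteins and then to protamines. Many of these messages are made in round spermatids, stored in ribonucleoprotein particles and translated only during elongation. Sex chromosomes are silenced in meiotic prophase and many of their genes stay low afterwards, while a subset is transcribed again in spermatids.

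The cell type field of the sample records names another cell type than the title in 3 of the 4 KO libraries, and in 6 of all 8 KO libraries, so the titles were checked against the data. Across all genes, KO spermatid libraries 1 and 2 had Spearman rho 0.980 and 0.958 with the WT spermatid mean and 0.717 and 0.673 with the WT MI mean. KO MI libraries 1 and 2 had rho 0.703 and 0.732 with the WT spermatid mean and 0.949 and 0.955 with the WT MI mean. With the means of WT spermatogonia and WT MII spermatocytes rho was at most 0.397 for the KO spermatid libraries and at most 0.581 for the KO MI libraries. Of the 4 WT cell types, each library thus had its highest rho with the one its title names; genes are not independent replicates, and these rho values are descriptions. Between replicates rho was 0.944 in KO spermatids and 0.939 in KO MI spermatocytes, and 0.971 and 0.959 in the same WT cell types. All levels here are FPKM, a density of fragments over transcript length and library size, with 10044 and 10890 genes at 1 FPKM or more in KO spermatids and 10714 and 11306 in KO MI spermatocytes; read depth is unknown.

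Tex10, the targeted gene, codes for a nuclear protein of the rixosome, a complex that takes part in the maturation of the large ribosomal subunit. It lies on chromosome 4 from 48430858 to 48473459, minus strand (mm10). Its level was 31.8 and 34.8 FPKM in KO spermatids, against 10.9 and 14.6 FPKM in KO MI spermatocytes. WT spermatids held 98.8 and 116 FPKM and WT MI spermatocytes 63.1 and 57.5 FPKM. Both KO groups lay below their WT counterparts without overlap, and within each genotype both spermatid libraries lay above both MI libraries. The KO step passed the test (log2 change 1.33, SE 0.31, adjusted p = 0.0034 by limma), but not after quantile normalization (adjusted p = 0.14). The labels do not name the deleted exons, so transcript from the rest of the gene may be counted. Of the 7 rixosome genes and partners measured, Tex10 alone rose and 3 fell: Nol9, a polynucleotide kinase (log2 change -1.97), the AAA ATPase Mdn1 (-1.57) and the nuclease Las1l (-0.96). Las1l lost its call in several alternatives, among them those without KO spermatid replicate 1 (adjusted p = 0.089) or KO MI replicate 1 (0.078).

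Spermatid markers rose, and most spermatogonia markers fell. Of 20 round spermatid markers, 19 rose between KO MI spermatocytes and KO spermatids and 0 fell, with a median log2 change of 3.71. Lelp1 is an example, at 28.96 and 94.95 FPKM in KO spermatids, against 0.583 and 1.4 FPKM in KO MI spermatocytes. Elongating spermatid markers rose in 17 of 18 cases (median 4.96). Of 14 spermatogonia markers, 11 fell (median -1.75), among them Zbtb16 at 0 and 0.177 FPKM in KO spermatids and 8.1 and 5.41 FPKM in KO MI spermatocytes. Over all 13099 genes tested, 23.6% rose and 18.8% fell, with a median of 0.01. Pachytene and diplotene spermatocyte markers had no common direction, with 7 of 20 higher and 5 lower. Without KO spermatid replicate 1 or KO MI replicate 2, 4 were higher, and without KO spermatid replicate 2 or KO MI replicate 1, 3 were lower.

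KO spermatid replicate 2 carried more somatic transcript than replicate 1. All 10 Leydig cell markers were at least 2-fold higher in replicate 2, and so were all 8 Sertoli cell markers that averaged 1 FPKM in KO spermatids, with a median ratio of 5.23. Insl3, the Leydig cell hormone, stood at 6.14 and 108 FPKM in KO spermatids, against 12.6 and 25.6 FPKM in KO MI spermatocytes, and Clu, a secreted chaperone of Sertoli cells, at 7.1 and 45.1 FPKM in KO spermatids, against 3.42 and 4.95 FPKM in KO MI spermatocytes. Called higher were 6 of 9 Sertoli and 1 of 10 Leydig markers, and without replicate 2 these counts were 3 and 0, with 1 lower in each list; without replicate 1, 5 Leydig markers were higher. Of 8 myoid and endothelial markers 4 fell and 0 rose, with the matrix gene Dcn at 2.14 and 19.1 FPKM in KO spermatids, against 48.4 and 88.2 FPKM in KO MI spermatocytes. Without KO spermatid replicate 1 the falls were 2. Leydig markers were uneven between replicates in other groups too. Hsd3b6 stood at 4.4 and 20.9 FPKM in KO MI spermatocytes and at 13.5 and 2.14 FPKM in WT spermatids. Insl3 stood at 33.8 and 3.89 FPKM in WT spermatids. The part of somatic transcripts in the results was not tested. In bulk samples like these, fewer cells of a type and less RNA per cell cannot be told apart.

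The step from MI spermatocytes to spermatids changed 5549 genes in the KO, 42.4% of 13099, with 3090 higher (23.6%) and 2459 lower (18.8%) at a limma adjusted p under 0.05. In the WT the same test called 2955 higher (22.6%) and 2588 lower (19.8%), 42.3% in all. Both genotypes shared 2580 of the rises, 83.5% of those in the KO and 87.3% of those in the WT. They shared 1996 of the falls, 81.2% of those in the KO and 77.1% of those in the WT. Opposite calls were limited to Usp51, a deubiquitinase gene chosen for mention after its values were seen. The scaling of the libraries moved the balance of the KO calls: quantile normalization gave 2172 higher and 2741 lower and moved the median of all genes to -0.17. The near-equal totals of the genotypes were not kept when each library was weighted by its own spread. That fit gave 2915 higher and 2161 lower in the KO, and 3720 and 3383 in the WT.

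Large changes on the log2(FPKM + 1) scale were mostly rises. This scale understates changes that start or end at a low level. Crabp1, at 0 and 1.22 FPKM in KO spermatids, against 18.2 and 18.7 FPKM in KO MI spermatocytes, had a log2 change of -3.71. The summed FPKM of the listed genes was also higher in KO spermatids (481973 and 513559) than in KO MI spermatocytes (294975 and 257647). The part of scale and scaling in the balance of large changes was not tested. In the KO, 324 genes rose by at least 4 on the log2 scale and 2 fell by as much, against 449 and 16 in the WT. With a lower bound of 2 on the log2 scale the KO counts were 1473 and 409, and the WT counts 1448 and 504. Genes under 1 FPKM in both MI libraries and at 5 FPKM or more in both spermatid libraries numbered 208 in the KO and 382 in the WT, with 143 in common. In the other direction, 40 genes in the KO and 76 in the WT were under 1 FPKM in both spermatid libraries and at 5 FPKM or more in both MI libraries, with 10 in common. Whether these counts differ between genotypes was not tested.

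**Figure D1:**
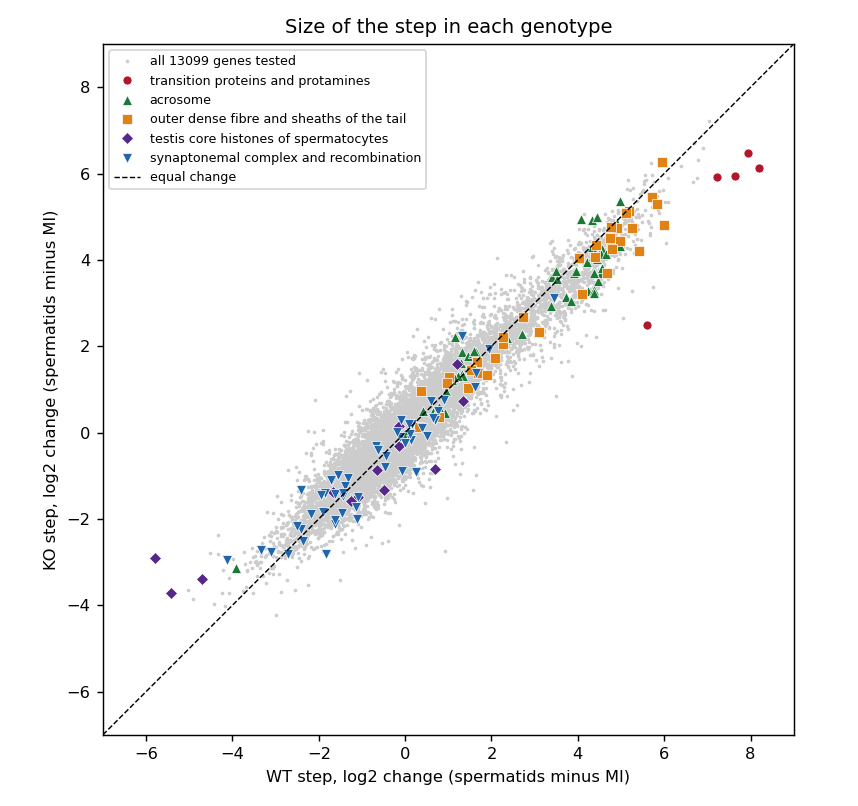
Log2 change of each of the 13099 genes between MI spermatocytes and spermatids, in the KO (spermatids minus MI) against the WT, each axis on the log2(FPKM + 1) scale. Most genes lie near the diagonal (Pearson r 0.951 across genes, a description), and 0 genes passed the adjusted test of the difference.

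**Figure D2:**
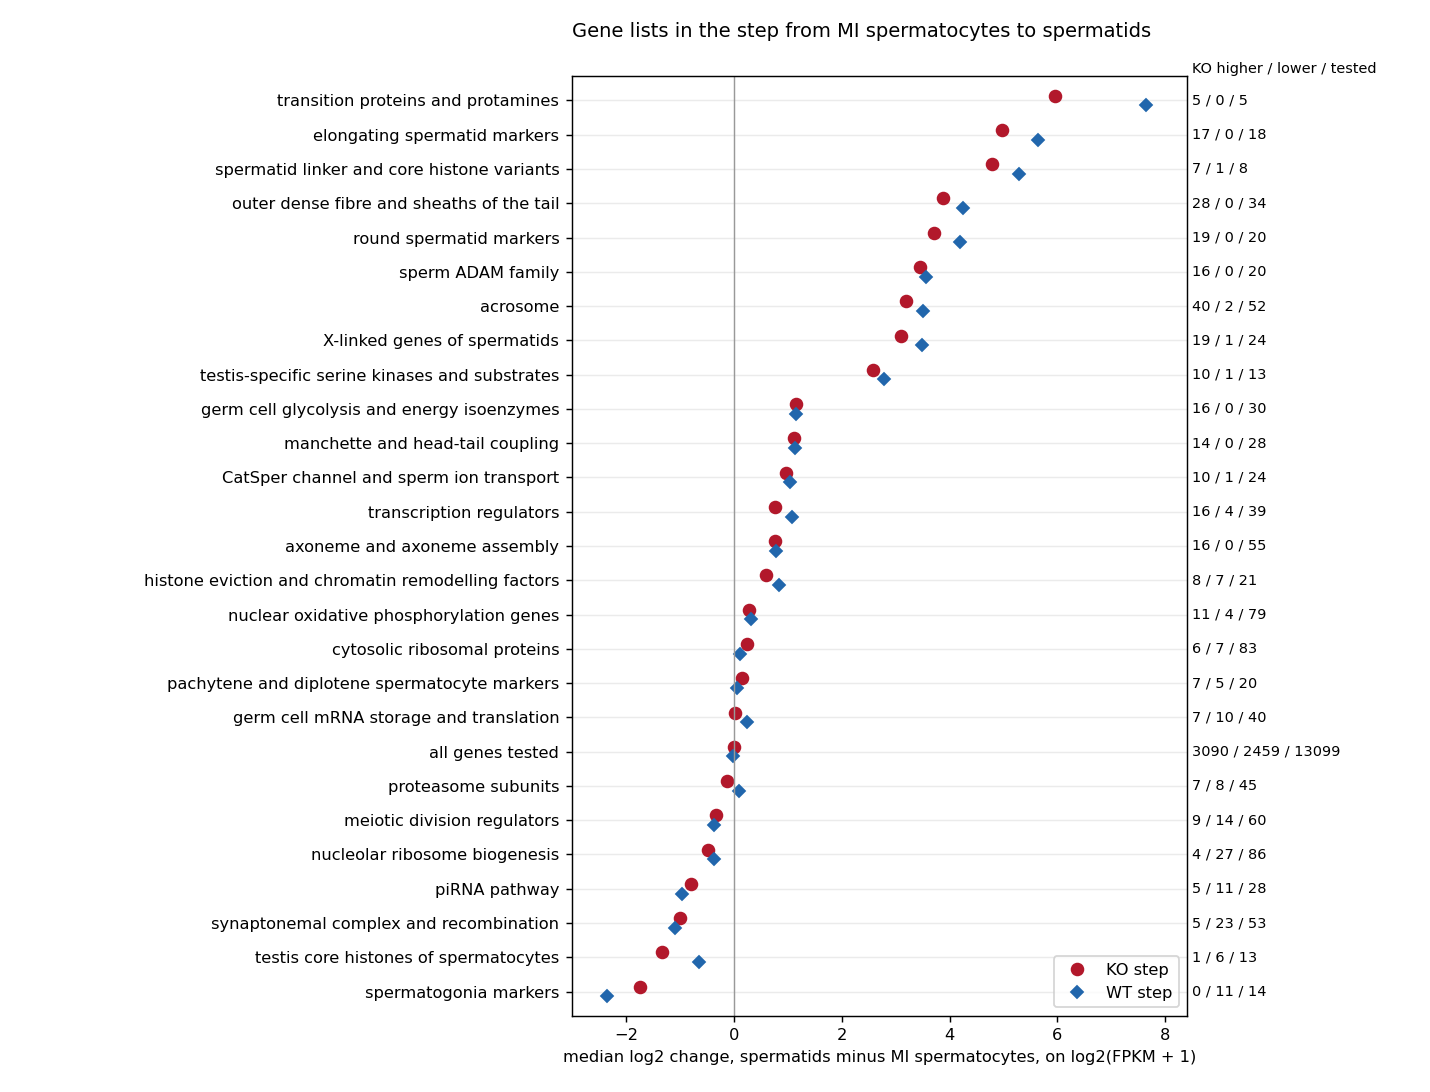
Counts of list members called higher and lower in the step from KO MI spermatocytes to KO spermatids, with the median log2 change of each list. Lists of the haploid program lie on the higher side, with the transition protein and protamine median at 5.95, and lists of meiosis and nucleolar function on the lower side.

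The packaging proteins of the spermatid nucleus rose steeply in the KO, but all 5 stayed below WT spermatids. Transition proteins bind DNA as histones leave, and protamines, the arginine-rich proteins of mature sperm, follow them. Tnp1, the more abundant transition protein message, stood at 1188 and 1209 FPKM in KO spermatids, against 17.2 and 19.5 FPKM in KO MI spermatocytes. The KO spermatid libraries lay close together and about 65.2-fold above the MI mean (log2 change 5.95, SE 0.31, adjusted p = 3.9e-07 by limma). WT spermatids held 2592 and 3301 FPKM and WT MI spermatocytes 14.9 and 12.3 FPKM. Tnp1 was low in the MI libraries of both genotypes, and lower in both KO than in both WT spermatid libraries.

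Tnp2 stood at 519 and 464 FPKM in KO spermatids, against 4.94 and 10.1 FPKM in KO MI spermatocytes (log2 change 5.92, SE 0.51, adjusted p = 7.6e-06). Prm1 stood at 896 and 537 FPKM in KO spermatids, against 5.91 and 7.71 FPKM in KO MI spermatocytes (log2 change 6.48, SE 0.75, adjusted p = 2.2e-05). For Prm2, made as a precursor that is cleaved on the chromatin, the values were 996 and 1127 FPKM in KO spermatids, against 6.7 and 28.7 FPKM in KO MI spermatocytes (log2 change 6.13, SE 0.62, adjusted p = 1.3e-05). In each of these genes both spermatid libraries exceeded both MI libraries many times over. Prm3, which codes for an acidic protein encoded within the protamine cluster, reached only 21.3 and 15.6 FPKM in KO spermatids, against 2.64 and 2.27 FPKM in KO MI spermatocytes (log2 change 2.48, SE 0.56, adjusted p = 0.0028). With a pseudocount of 0.1 its call was lost (adjusted p = 0.16). The 5 genes together held 0.751% and 0.653% of all FPKM in KO spermatids and 0.0127% and 0.0265% in KO MI spermatocytes. In the WT they held 1.39% and 1.91% in spermatids and 0.0167% and 0.00900% in MI spermatocytes.

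Both KO spermatid libraries were below both WT spermatid libraries for all 5 genes, which was so for 15.9% of all genes tested. WT spermatids held 1099.5 and 1552 FPKM of Tnp2, 1592 and 1717 of Prm1, 1791 and 3574 of Prm2 and 57.4 and 61.6 of Prm3. The median log2 change was 5.95 in the KO and 7.65 in the WT. In the test of the difference of steps (KO step minus WT step) the unadjusted p was under 0.05 for 3 of the 5, against 1.85% of all genes. The difference was -1.70 (SE 0.44, unadjusted p = 0.0019) for Tnp1, -2.06 (SE 0.87, unadjusted p = 0.034) for Prm2 and -3.12 (SE 0.79, unadjusted p = 0.0015) for Prm3. For Prm1 it was -1.45 (SE 1.06, unadjusted p = 0.19) and for Tnp2 -1.31 (SE 0.72, unadjusted p = 0.09). After adjustment over all genes 0 of them passed (smallest adjusted p of any gene 0.767). The median ratio of KO spermatid replicate 2 over replicate 1 was 0.893, with Prm1 the least even at 0.599.

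Promoters of some of the steepest rises are shown because part of them hold TGATGTCA, a variant of the cyclic AMP response element TGACGTCA. CREM, an activator of haploid genes, is known to bind such elements. Each run is the 250 bases before the transcript start, 5′ to 3′ on the gene's strand, from RefSeq on GRCm38.p6, with TGATGTCA on either strand in capitals (TGACATCA is its reverse complement). The Tnp1 window (chr1:73015900-73016149, minus strand) has 1 match, 94 bases before the start. Those of Prm1 (chr16:10796824-10797073, minus) and Prm2 (chr16:10792106-10792355, minus) have 0, which says only that these letters are not in these windows. The Tnp2 window, not printed, also has 0, and of the 5 transition protein and protamine genes 1 held the element. The window of Akap4 (chrX:7067265-7067514, plus), for a scaffold protein of the fibrous sheath, has 1 match 35 bases before the start. That of Gapdhs (chr7:30743682-30743931, minus), for the glyceraldehyde phosphate dehydrogenase of sperm, has 2, the farther of which lies 94 bases before the start. Akap4 and Gapdhs each have 2 promoters in the RefSeq table, of which 1 is shown.
Tnp1: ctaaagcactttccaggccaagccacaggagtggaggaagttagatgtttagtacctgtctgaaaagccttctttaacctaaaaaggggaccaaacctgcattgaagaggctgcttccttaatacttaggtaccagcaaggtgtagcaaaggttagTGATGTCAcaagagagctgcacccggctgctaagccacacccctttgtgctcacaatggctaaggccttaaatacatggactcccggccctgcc
Prm1: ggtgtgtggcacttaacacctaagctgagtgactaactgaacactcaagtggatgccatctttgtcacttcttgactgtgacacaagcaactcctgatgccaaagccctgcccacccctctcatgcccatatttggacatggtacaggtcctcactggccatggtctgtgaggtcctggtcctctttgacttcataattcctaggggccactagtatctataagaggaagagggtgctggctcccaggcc
Prm2: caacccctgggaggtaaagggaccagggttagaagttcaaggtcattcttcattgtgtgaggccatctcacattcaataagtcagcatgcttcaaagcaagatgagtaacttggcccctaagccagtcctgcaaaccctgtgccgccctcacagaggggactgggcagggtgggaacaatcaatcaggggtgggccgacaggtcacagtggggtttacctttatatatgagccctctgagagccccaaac
Akap4: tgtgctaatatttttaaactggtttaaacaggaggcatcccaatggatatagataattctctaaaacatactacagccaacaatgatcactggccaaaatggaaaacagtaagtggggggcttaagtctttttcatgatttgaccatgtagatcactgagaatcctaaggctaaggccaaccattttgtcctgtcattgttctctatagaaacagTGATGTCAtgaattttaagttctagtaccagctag
Gapdhs: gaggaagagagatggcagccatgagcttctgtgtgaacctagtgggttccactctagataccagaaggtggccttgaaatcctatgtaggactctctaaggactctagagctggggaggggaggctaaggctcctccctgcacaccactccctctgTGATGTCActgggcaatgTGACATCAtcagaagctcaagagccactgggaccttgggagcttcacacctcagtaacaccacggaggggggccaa

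TGATGTCA was common in the promoters of the steepest rises. The element was searched for after some of these promoters had been seen, and a match is a description, not a binding site. Of 10532 tested genes with a listed promoter, 3.20% held it within 250 bases before a start, on either strand; of all 32851 RefSeq promoters in the table, 2.93% did. Among genes that rose in the KO by at least 4 on the log2 scale the share was 62 of 266 (23.3%). It was 91 of 916 (9.93%) among rises of 2 to under 4, 46 of 1299 (3.54%) among smaller rises, 109 of 6062 (1.80%) among genes not called and 29 of 1989 (1.46%) among falls. In the WT it was 74 of 354 (20.9%) among rises of at least 4. The palindrome TGACGTCA, in 3.11% of all genes, was in 2 of 266 KO rises of at least 4 (0.752%), 3.60% of rises of 2 to under 4, 4.62% of smaller rises and 2.71% of falls. In the WT it was in 9 of 354 rises of at least 4 (2.54%). CCAAT, searched for as a common promoter element, was present in 38.7% of KO rises of at least 4 and 39.4% of KO falls. Of the 337 genes with TGATGTCA, 199 rose in the KO (59.1%) and 29 fell (8.61%), with a median log2 change of 1.54. By list, it was in the promoters of 11 of 44 acrosome genes and 7 of 28 genes of the outer dense fibres and sheaths, and in 0 of 47 axoneme genes and 0 of 43 synaptonemal complex and recombination genes. Shares in other, mostly small lists of the haploid program varied. The element was in 5 of 16 elongating and 3 of 20 round spermatid markers. It was in 4 of 24 genes listed as X-linked genes of spermatids, 3 of 23 energy isoenzymes and 2 of 20 manchette and head-tail genes. Sperm ADAM genes held it in 1 of 10 cases, genes listed with the testis-specific serine kinases in 0 of 10 and sperm ion transport genes in 0 of 19. Some genes are in more than 1 list.

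**Figure D3:**
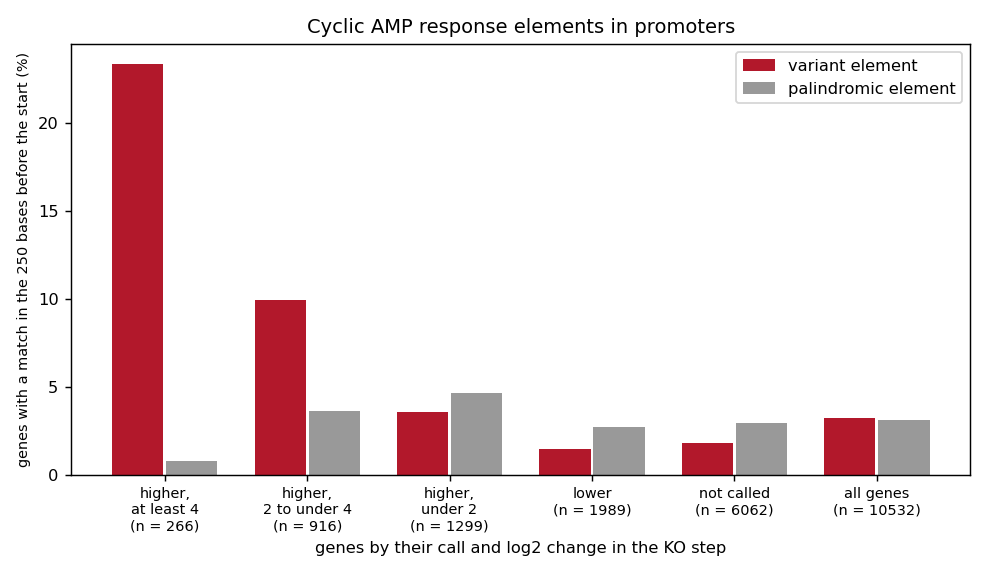
Share of genes (percent) with TGATGTCA or TGACGTCA in the 250 bases before a start, by the size of the change between KO MI spermatocytes and KO spermatids. The TGATGTCA share is 23.3% among rises of at least 4 on the log2 scale and 1.46% among falls.

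Histone variants of spermatids rose as a group. Of 8 measured, 7 rose and 1 fell, with a median log2 change of 4.78 in the KO and 5.28 in the WT. Hils1, a linker histone variant of elongating spermatids, stood at 387 and 861 FPKM in KO spermatids, against 19.6 and 27.8 FPKM in KO MI spermatocytes (log2 change 4.57, SE 0.47, adjusted p = 1.3e-05). H1fnt, the other spermatid linker histone, stood at 205 and 565 FPKM in KO spermatids, against 4.05 and 10.5 FPKM in KO MI spermatocytes (log2 change 5.48, SE 0.53, adjusted p = 1.1e-05). H2afb1, a short H2A variant encoded on the X chromosome, was at 22.6 and 141 FPKM in KO spermatids and listed at 0 in both KO MI libraries (adjusted p = 1.9e-05). For all 7 genes that rose, KO spermatid replicate 2 was at least 2-fold above replicate 1, with a median ratio of 3.11, which was not so for any transition protein or protamine. The 1 fall was Hist3h2ba, a somatic-type H2B, listed at 0 in both KO spermatid libraries, with 11.5 and 8.01 FPKM in KO MI spermatocytes.

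Hist1h1t, Hist1h2aa and Hist1h2ba, testis histones made in spermatocytes, fell in the KO to levels above those of WT spermatids. They were listed with histones that are not limited to the testis, such as H3f3a and H2afz. Of the 13 histones measured in this mixed list, 6 fell and 1 rose (H3f3a, for histone H3.3, log2 change 1.58). The median was -1.33 in the KO and -0.65 in the WT. Hist1h1t, the testis linker histone, stood at 18.9 and 34.1 FPKM in KO spermatids, against 399 and 191 FPKM in KO MI spermatocytes (log2 change -3.39, SE 0.36, adjusted p = 1.5e-05). WT spermatids held 5.75 and 6.11 FPKM and WT MI spermatocytes 159 and 203 FPKM. The MI ranges of the genotypes overlapped, and both KO spermatid libraries lay above both WT ones.

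Hist1h2aa, the testis H2A, was among the 10 most abundant genes of KO MI spermatocytes. It stood at 92.3 and 232 FPKM in KO spermatids, against 1178 and 1021 FPKM in KO MI spermatocytes (log2 change -2.90, SE 0.51, adjusted p = 0.00046). WT spermatids held 13.7 and 20.3 FPKM and WT MI spermatocytes 1394 and 683 FPKM. Its partner Hist1h2ba, the testis H2B, stood at 6.34 and 3.87 FPKM in KO spermatids, against 164 and 36.4 FPKM in KO MI spermatocytes (log2 change -3.72, SE 0.56, adjusted p = 0.00014). It was listed at 0 in both WT spermatid libraries. The difference of steps was 2.89 (SE 0.72, unadjusted p = 0.0013) for Hist1h2aa, 1.31 (SE 0.52, unadjusted p = 0.024) for Hist1h1t and 1.70 (SE 0.79, unadjusted p = 0.048) for Hist1h2ba, positive because the fall was smaller in the KO. In all, 4 of the 13 had an unadjusted p under 0.05, against 1.85% of all genes, and 0 passed adjustment. The other of the 4, H2afj, went the opposite way, with a difference of -1.55 (SE 0.71, unadjusted p = 0.048 by limma). It was low, at 0.326 and 0.155 FPKM in KO spermatids and 3.01 and 0.392 FPKM in WT spermatids. KO spermatids lay above WT spermatids without overlap for 4 of the 13, against 11.7% of all genes tested.

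Hist1h2aa and Hist1h2ba are transcribed away from each other on chromosome 13, with 280 bases between their starts. The window before Hist1h2ba (RefSeq symbol H2bc1, chr13:23934157-23934406, minus strand, GRCm38.p6) is therefore shared by the pair, and is printed for that reason; it was chosen after the values were seen. TACGTCA, in capitals, starts 116 bases before the Hist1h2ba start and is held by 2.23% of all tested genes with a promoter and 2.97% of those that fell in the KO. Neither TGATGTCA nor TGACGTCA is in this window.
Hist1h2ba: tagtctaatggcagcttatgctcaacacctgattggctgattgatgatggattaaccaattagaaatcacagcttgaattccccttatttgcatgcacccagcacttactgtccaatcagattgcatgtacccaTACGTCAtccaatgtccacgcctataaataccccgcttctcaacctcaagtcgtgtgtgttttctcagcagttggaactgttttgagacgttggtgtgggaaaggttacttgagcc

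**Figure D4:**
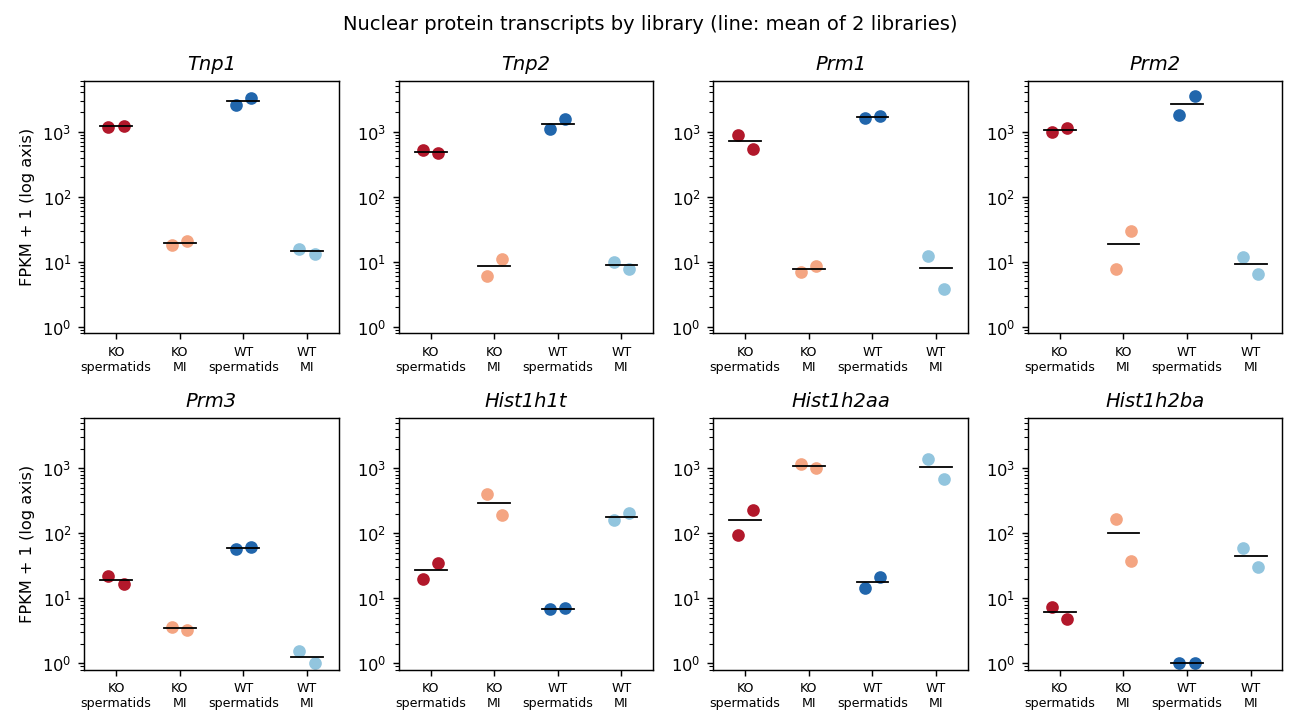
FPKM (log axis) in each library for transition proteins, protamines and histones, KO spermatids left of KO MI spermatocytes, with the WT libraries of the same cell types. Tnp1 stands at 1188 and 1209 FPKM in KO spermatids and 2592 and 3301 in WT spermatids, and Hist1h2aa at 92.3 and 232 in KO spermatids and 13.7 and 20.3 in WT spermatids.

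Factors that act on chromatin during histone removal were split, with 8 of 21 higher and 7 lower, against 23.6% and 18.8% of all genes tested. Their median of 0.60 turned to -0.16 after quantile normalization. Chd5, a chromatin remodeller, stood at 40.7 and 53.3 FPKM in KO spermatids, against 2.45 and 4.67 FPKM in KO MI spermatocytes (log2 change 3.43, SE 0.38, adjusted p = 1.8e-05). Cdyl, a chromodomain protein, rose with log2 change 3.73, and Tssk6, a kinase needed for histone removal, with 3.71. Psme4, the proteasome activator that acts on acetylated histones, stood at 325 and 321 FPKM in KO spermatids, against 81.1 and 109 FPKM in KO MI spermatocytes (log2 change 1.77, SE 0.38, adjusted p = 0.0019), a call lost after quantile normalization (adjusted p = 0.15). The testis proteasome subunit Psma8 and the DNA damage adaptor Mdc1 fell. Brdt, the bromodomain protein that reads acetylated histones, had 450.2 and 396 FPKM in KO spermatids and 335 and 294 FPKM in KO MI spermatocytes and was not called.

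The 7 other genes among the 12 steepest rises, besides the transition proteins, protamines and H2afb1, were uneven between KO spermatid libraries. Cabs1, a calcium-binding protein of spermatids, stood at 464 and 2037 FPKM in KO spermatids, against 4.07 and 16.2 FPKM in KO MI spermatocytes (log2 change 6.70, SE 0.74, adjusted p = 1.7e-05). Spata3 stood at 339.6 and 1208 FPKM in KO spermatids, against 4.8 and 11.1 FPKM in KO MI spermatocytes (log2 change 6.26, SE 0.71, adjusted p = 1.9e-05). Dnajb8, a small heat shock cochaperone, stood at 64.6 and 237 FPKM in KO spermatids, against 0.958 and 1.03 FPKM in KO MI spermatocytes (log2 change 5.97, SE 0.69, adjusted p = 2.1e-05). For all 3 the MI libraries were low and the spermatid libraries lay far above them, replicate 2 highest. Ubqlnl (log2 change 6.17), Asb17 (5.96), the cystatin Cst8 (5.82) and the serine protease Prss52 (5.66) had the same order of replicates.

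Many other genes were uneven in the same direction, steep rises among them. Of 2845 genes that rose in the KO and averaged at least 5 FPKM in KO spermatids, replicate 2 was at least 2-fold above replicate 1 for 469 and at least 2-fold below it for 52, with a median ratio of 1.08. Of the 324 with a log2 change of at least 4, the counts were 184 and 1, with a median ratio of 2.23. By list the median ratio was 1.90 for elongating spermatid markers, 1.47 for outer dense fibre and sheath genes and 1.10 for round spermatid markers. It was 1.004 for acrosome genes, 0.763 for axoneme genes and 0.765 for pachytene and diplotene markers. Lists in which few genes rose could be uneven too. The median ratio was 1.67 for X-linked housekeeping genes and 4.14 for immediate early and stress genes. Over chromosome X it was 1.497, with 129 of 336 genes at least 2-fold higher in replicate 2, and over the autosomes 0.972, with 1461 of 10258. Without KO spermatid replicate 2 the test still gave 2557 genes higher and 2077 lower, of which 2477 and 1814 were also called with it. Rises without it numbered 5 of 5 transition proteins and protamines, 7 of 8 spermatid histone variants, 17 of 18 elongating and 19 of 20 round spermatid markers, 38 of 52 acrosome genes and 24 of 34 outer dense fibre and sheath genes.

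**Figure D5:**
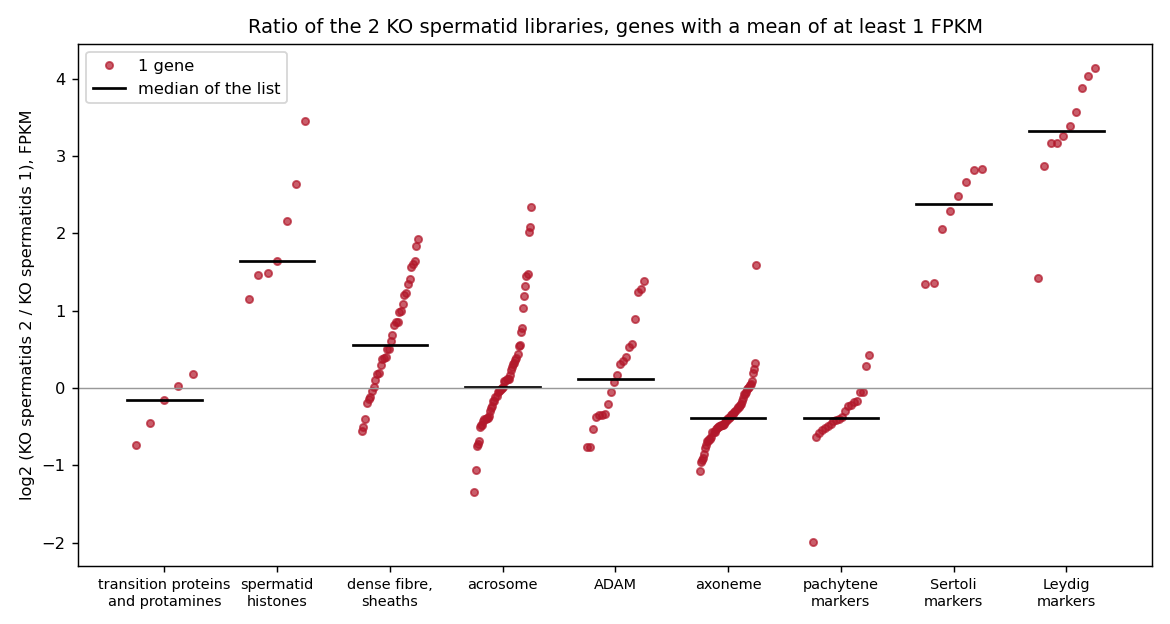
Ratio of KO spermatid replicate 2 to replicate 1 (log axis) by gene list. The median is 3.11 for spermatid histone variants, 0.893 for transition proteins and protamines, 0.763 for axoneme genes and 5.23 for Sertoli cell markers.

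Acrosome genes rose together. Of 52 measured, 40 rose and 2 fell, with a median log2 change of 3.19 in the KO and 3.51 in the WT. Acrv1, a protein of the acrosomal matrix, stood at 359.5 and 381 FPKM in KO spermatids, against 22.2 and 34.7 FPKM in KO MI spermatocytes (log2 change 3.69, SE 0.57, adjusted p = 0.00017). Spaca7, which is released during the acrosome reaction, stood at 116 and 145 FPKM in KO spermatids, against 1.97 and 5.23 FPKM in KO MI spermatocytes (log2 change 4.93, SE 0.55, adjusted p = 1.8e-05). Both had near-equal spermatid replicates far above the MI libraries. Prss37, a protease-like protein needed for sperm migration, was uneven at 32.97 and 167 FPKM in KO spermatids, against 0 and 2.32 FPKM in KO MI spermatocytes, and Actrt2, an actin-related protein of the perinuclear theca, stood at 24.5 and 55.8 FPKM in KO spermatids, against 0.209 and 0.177 FPKM in KO MI spermatocytes. Clgn and Spata16, abundant already in MI spermatocytes, were not called: Clgn, an endoplasmic reticulum chaperone, held 1252 and 884 FPKM in KO spermatids and 778 and 710.2 FPKM in KO MI spermatocytes. The 2 falls, named after their values were seen, were Tex101, a germ cell surface protein (-3.14), and Gopc, a Golgi protein (-1.51).

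Genes of the accessory tail structures rose in 28 of 34 cases, with 0 falls and a median of 3.87 in the KO and 4.25 in the WT. These structures are the outer dense fibres, the fibrous sheath and the mitochondrial sheath around the axoneme. Smcp, of the mitochondrial capsule, was among the 10 most abundant genes of KO spermatids, at 1675 and 2933 FPKM, against 118 and 120.3 FPKM in KO MI spermatocytes (log2 change 4.20, SE 0.43, adjusted p = 1.3e-05). Akap4 stood at 462 and 1367 FPKM in KO spermatids, against 9.25 and 30.7 FPKM in KO MI spermatocytes (log2 change 5.46, SE 0.69, adjusted p = 4e-05). Odf1, a protein of the outer dense fibres, stood at 505 and 912 FPKM in KO spermatids, against 17.1 and 31.5 FPKM in KO MI spermatocytes (log2 change 4.81, SE 0.47, adjusted p = 1.1e-05). In all 3 replicate 2 was the higher spermatid library and the MI libraries were far below both. Odf2, which also serves at centrosomes, was abundant on both sides, with 2112 and 3400.1 FPKM in KO spermatids and 1416 and 1196 FPKM in KO MI spermatocytes, and was not called (adjusted p = 0.095).

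Axoneme genes changed less. Of 55, 16 rose and 0 fell, against 23.6% and 18.8% of all genes tested. The median was 0.76 in the KO and 0.77 in the WT, and after quantile normalization 6 rose and 5 fell with a median of 0.03. The count was 10 without KO spermatid replicate 1 or without KO MI replicate 1, 9 without KO MI replicate 2, and 26 without either WT MII spermatocyte library. Spag6l, a protein of the central pair, stood at 86.2 and 83.1 FPKM in KO spermatids, against 4.81 and 8.05 FPKM in KO MI spermatocytes (log2 change 3.56, SE 0.53, adjusted p = 0.00013). Tekt5, a tektin of sperm doublet microtubules, stood at 37.9 and 115 FPKM in KO spermatids, against 5.79 and 4.48 FPKM in KO MI spermatocytes (log2 change 3.46, SE 0.55, adjusted p = 0.00022). Ropn1l, a radial spoke protein, held 986 and 739 FPKM in KO spermatids and 497 and 339 FPKM in KO MI spermatocytes and was not called.

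Genes of the manchette, the microtubule sleeve that shapes the head, and of the head-tail joint rose in 14 of 28 cases with 0 falls (median 1.11). After quantile normalization 4 fell. The shares over all genes tested were 23.6% higher and 18.8% lower. Spatc1, a centrosomal protein, stood at 84.8 and 251 FPKM in KO spermatids, against 1.13 and 3.18 FPKM in KO MI spermatocytes (log2 change 5.62, SE 0.66, adjusted p = 2.3e-05). Sperm ion transport genes, including those of CatSper, the calcium channel of the tail, rose in 10 of 24 cases and fell in 1 (median 0.97, and 0.07 after quantile normalization). The fall, of a gene listed as Gm16432, was lost without any 1 of the 4 KO libraries. Catsper4, a pore subunit, stood at 246 and 228 FPKM in KO spermatids, against 16.2 and 38.01 FPKM in KO MI spermatocytes (log2 change 3.20, SE 0.54, adjusted p = 0.00036). Efcab9, a calcium sensor of the channel, rose with log2 change 4.42, and Atp1a4, the sodium pump subunit of sperm, with 4.85. Catsper2, another pore subunit, was uneven between replicates at 591 and 239 FPKM in KO spermatids and 423 and 119.9 FPKM in KO MI spermatocytes and was not called.

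Sperm isoenzymes of energy metabolism rose in 16 of 30 cases with 0 falls (median 1.15), and quantile normalization gave 8 higher and 3 lower. Gapdhs stood at 244 and 563 FPKM in KO spermatids, against 11.7 and 14.5 FPKM in KO MI spermatocytes (log2 change 4.73, SE 0.45, adjusted p = 1e-05). Pgk2, the phosphoglycerate kinase of the male germ line, stood at 1792 and 2460.4 FPKM in KO spermatids, against 214 and 207 FPKM in KO MI spermatocytes (log2 change 3.31, SE 0.47, adjusted p = 9.7e-05). Aldoart1, a sperm aldolase, rose with log2 change 5.02. Ldhc, the testis lactate dehydrogenase, was high throughout, with 2870.1 and 2134 FPKM in KO spermatids and 1922 and 931 FPKM in KO MI spermatocytes, and was not called.

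Of 13 genes listed with the testis-specific serine kinases, 10 rose, including all 6 Tssk genes measured, and 1 fell (Stk31, -1.51). The list also holds kinase genes outside the Tssk family, such as Stk31 and Prkaca. Its median was 2.58 in the KO and 2.78 in the WT. Tssk2 stood at 158 and 313 FPKM in KO spermatids, against 5.97 and 12.99 FPKM in KO MI spermatocytes (log2 change 4.50, SE 0.45, adjusted p = 1.2e-05). Tssk4, a kinase that acts on Odf2, was even between replicates, with 179 and 165 FPKM in KO spermatids, against 6.81 and 12.5 FPKM in KO MI spermatocytes (log2 change 4.07, SE 0.48, adjusted p = 2.3e-05). Sperm ADAM genes, for surface proteins of sperm, rose in 16 of 20 cases with 0 falls (median 3.46 in the KO and 3.55 in the WT). Adam24 stood at 92.5 and 97.4 FPKM in KO spermatids, against 2.004 and 7.33 FPKM in KO MI spermatocytes (log2 change 4.26, SE 0.62, adjusted p = 0.00011). Adam5, at 745 and 921 FPKM in KO spermatids and 283 and 357 FPKM in KO MI spermatocytes, was not called.

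Of 39 transcription regulators of the meiotic and haploid programs, 16 rose and 4 fell, against 23.6% and 18.8% of all genes tested. The median was 0.77 in the KO and 1.08 in the WT. Spz1, a basic helix-loop-helix zipper protein of the testis, stood at 450.3 and 1052 FPKM in KO spermatids, against 17.1 and 33.3 FPKM in KO MI spermatocytes (log2 change 4.79, SE 0.63, adjusted p = 5.2e-05). Fhl5, the coactivator of CREM, stood at 53.9 and 108 FPKM in KO spermatids, against 0.994 and 6.83 FPKM in KO MI spermatocytes (log2 change 4.29, SE 0.66, adjusted p = 0.00017). Crem itself, named here after its value was seen because of the promoter element above, stood at 174 and 164 FPKM in KO spermatids, against 40.1 and 37.3 FPKM in KO MI spermatocytes (log2 change 2.10, SE 0.39, adjusted p = 0.00079), with 165 and 187 FPKM in WT spermatids and 45.4 and 42.4 FPKM in WT MI spermatocytes. Tbpl1, a TBP relative needed in round spermatids, rose with log2 change 1.83, a call lost after quantile normalization (adjusted p = 0.13). The 4 falls were Tcf3, Nr2c2, Sp4 and Taf7l, of which 2 were left without KO spermatid replicate 1 or KO MI replicate 2.

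Genes for the storage and translation of germ cell messages had no common direction. Of 40, 7 were higher and 10 lower, against 23.6% and 18.8% of all genes tested, with a median of 0.03. This balance depended on scaling, since quantile normalization gave 1 higher and 17 lower and a median of -0.86. Without KO spermatid replicate 1 or KO MI replicate 2, 4 were higher. Ybx3, the Y-box protein that coats stored messages, had 3006 and 2868 FPKM in KO spermatids and 3807 and 2996 FPKM in KO MI spermatocytes and was not called. Dazl, which promotes translation in earlier germ cells, stood at 7.05 and 9.54 FPKM in KO spermatids, against 73.5 and 94.9 FPKM in KO MI spermatocytes (log2 change -3.20, SE 0.43, adjusted p = 6.3e-05).

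Among the steepest falls were somatic-type histone genes, Anp32b and Dnmt1. Hist1h1a, a replication-dependent linker histone, stood at 2.26 and 3.01 FPKM in KO spermatids, against 86.01 and 51.3 FPKM in KO MI spermatocytes (log2 change -4.22, SE 0.44, adjusted p = 1.3e-05). Anp32b, an acidic histone chaperone, stood at 1.19 and 3.36 FPKM in KO spermatids, against 55.5 and 40.6 FPKM in KO MI spermatocytes (log2 change -3.97, SE 0.31, adjusted p = 6.4e-06). Dnmt1, the maintenance DNA methyltransferase, stood at 1.54 and 1.94 FPKM in KO spermatids, against 38.4 and 31.3 FPKM in KO MI spermatocytes (log2 change -3.71, SE 0.25, adjusted p = 4.3e-06). These 3 were low in both spermatid libraries and far higher in both MI libraries. Of the 12 steepest falls, 6 were histone genes: Hist1h1a, Hist1h1c, Hist2h2ac, Hist1h2ba, Hist1h3b and Hist1h4d. Hist1h4d was uneven, with 1.19 and 21.4 FPKM in KO spermatids, against 131 and 57.9 FPKM in KO MI spermatocytes, and its call was lost without KO spermatid replicate 1 (adjusted p = 0.11) or KO MI replicate 1 (0.062). Reads of near-identical histone genes may be split between copies, and libraries selected for polyA miss histone messages without a tail, so single histone genes are uncertain. The channel gene Kcnk10 (-3.86), Stox1 (-3.71) and Pou2f2 (-3.70) were the other steep falls besides Crabp1.

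Genes of the synaptonemal complex and of recombination fell in 23 of 53 cases and rose in 5 (median -0.99 in the KO and -1.09 in the WT). Spata22, a single-strand DNA binding partner of meiotic recombination, stood at 1.33 and 3.12 FPKM in KO spermatids, against 17.2 and 30.7 FPKM in KO MI spermatocytes (log2 change -2.96, SE 0.52, adjusted p = 0.00051). Zcwpw1, a reader of the histone marks at recombination sites, stood at 1.14 and 0.572 FPKM in KO spermatids, against 12.4 and 11.4 FPKM in KO MI spermatocytes (log2 change -2.81, SE 0.45, adjusted p = 0.00024). Rec8, the meiotic cohesin, went the other way, with 17.5 and 13.3 FPKM in KO spermatids, against 0.994 and 0.769 FPKM in KO MI spermatocytes (log2 change 3.11, SE 0.48, adjusted p = 0.00017). The other 4 rises were Syce2, Syce3, Smc3 and Tex15, and without KO spermatid replicate 2 the rises were 3.

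Regulators of the meiotic divisions were divided, with 14 of 60 lower and 9 higher (median -0.33), or 5 higher without KO spermatid replicate 1. Of all genes tested, 18.8% were lower and 23.6% higher. Cks2, a cyclin-dependent kinase subunit, stood at 17.1 and 20.4 FPKM in KO spermatids, against 197 and 87.1 FPKM in KO MI spermatocytes (log2 change -2.75, SE 0.36, adjusted p = 5.3e-05). The spindle checkpoint gene Mad2l1 fell by a log2 change of -2.35. Cdc25c, the phosphatase that activates CDK1, stood at 16.01 and 14.3 FPKM in KO spermatids, against 3.07 and 2.28 FPKM in KO MI spermatocytes (log2 change 2.14, SE 0.47, adjusted p = 0.0024). The cyclin genes Ccna1, Ccnb1 and Ccnb2 also rose.

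piRNA pathway genes fell in 11 of 28 cases and rose in 5 (median -0.80 in the KO and -0.97 in the WT). The rises were 3 without any 1 of the 4 KO or the 2 WT MI libraries. Piwil1, a PIWI protein of pachytene cells, stood at 23.4 and 18.95 FPKM in KO spermatids, against 176 and 131 FPKM in KO MI spermatocytes (log2 change -2.79). Tdrd5, a Tudor domain protein, stood at 8.54 and 13.4 FPKM in KO spermatids, against 108 and 124 FPKM in KO MI spermatocytes (log2 change -3.31). Kif17, a kinesin that moves the CREM coactivator, stood at 61.7 and 64.1 FPKM in KO spermatids, against 3.53 and 5.43 FPKM in KO MI spermatocytes (log2 change 3.57, SE 0.35, adjusted p = 1.1e-05). The zinc finger gene Gtsf1l rose with log2 change 3.45. Mael, a piRNA factor and among the most abundant genes of both KO groups, held 4187 and 2979 FPKM in KO spermatids and 3354 and 2759 FPKM in KO MI spermatocytes and was not called.

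Nucleolar genes of ribosome assembly fell in 27 of 86 cases and rose in 4, against 18.8% and 23.6% of all genes tested. The median was -0.48 in the KO and -0.36 in the WT. Ncl, nucleolin, stood at 3.21 and 7.63 FPKM in KO spermatids, against 56.4 and 62.3 FPKM in KO MI spermatocytes (log2 change -3.32, SE 0.34, adjusted p = 1.3e-05), with 5.02 and 4.65 FPKM in WT spermatids and 62.7 and 50.96 FPKM in WT MI spermatocytes. Utp20 and Wdr43, of the small subunit processome, fell with log2 changes of -2.55 and -2.31. Npm1, nucleophosmin, did not, with 637 and 653 FPKM in KO spermatids and 529.8 and 745 FPKM in KO MI spermatocytes. The 4 rises were Nop10, Nop14, Rpf2 and Ddx49, and after quantile normalization 0 rose. Without 1 library the rises were 2 (KO spermatid replicate 1 or KO MI replicate 1) or 1 (KO MI replicate 2).

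Cytosolic ribosomal protein genes were called in few cases, with 6 of 83 higher and 7 lower, and their median of 0.24 was -0.53 after quantile normalization, which gave 0 higher and 19 lower. Without KO spermatid replicate 1, 3 were higher, and without KO MI replicate 1, 10 were higher and 2 lower. Nuclear genes of oxidative phosphorylation rose in 11 of 79 cases and fell in 4 (median 0.29), and quantile normalization gave 1 higher and 10 lower. Without KO spermatid replicate 1 the counts were 7 and 7, without KO MI replicate 2 there were 4 higher, and without KO MI replicate 1 there was 1 lower. Ndufa1, an X-linked complex I subunit, stood at 0.668 and 0.625 FPKM in KO spermatids, against 9.55 and 7.93 FPKM in KO MI spermatocytes (log2 change -2.56, SE 0.36, adjusted p = 9.4e-05), with 5.9 and 5.61 FPKM in WT spermatids and 8.92 and 8.78 FPKM in WT MI spermatocytes. Proteasome subunits rose in 7 of 45 cases and fell in 8, or in 5 without any 1 of the 4 KO libraries. The shares over all genes tested were 23.6% and 18.8%. Psma6, a subunit of the core ring, stood at 311 and 390.0 FPKM in KO spermatids, against 54.8 and 56.04 FPKM in KO MI spermatocytes (log2 change 2.63, SE 0.25, adjusted p = 9.6e-06).

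On the X chromosome 166 of 503 genes rose and 83 fell, with a median log2 change of 0.09, against 2910 and 2374 of 12558 autosomal genes. The X-linked falls were 48 without KO spermatid replicate 1 and 41 without KO MI replicate 2. X-linked genes known from spermatids rose in 17 of 22 cases and fell in 1 (median 2.95 in the KO and 3.49 in the WT), leaving out Hsfy2 and Cypt4, listed with them but placed on chromosomes 1 and 9 (19 of 24 with them, as plotted). Cylc1, of the sperm head calyx, stood at 46.2 and 196 FPKM in KO spermatids, against 1.46 and 8.58 FPKM in KO MI spermatocytes (log2 change 4.31, SE 0.70, adjusted p = 0.00027). X-linked housekeeping genes fell in 10 of 35 cases and rose in 7 (median -0.67), with 17 lower without KO spermatid replicate 2 and 6 lower without KO MI replicate 2. The shares over all genes tested were 18.8% lower and 23.6% higher. Taf1, the largest TFIID subunit, stood at 0.418 and 0.807 FPKM in KO spermatids, against 5.68 and 8.62 FPKM in KO MI spermatocytes (log2 change -2.32, SE 0.32, adjusted p = 7.2e-05). Phf6 stood at 16.1 and 16.9 FPKM in KO spermatids, against 3.42 and 3.1 FPKM in KO MI spermatocytes (log2 change 2.04, SE 0.30, adjusted p = 0.00012).

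KO MI spermatocytes lay above WT MI spermatocytes without overlap for 165 of 503 X-linked genes (32.8%), against 1873 of 12558 autosomal genes (14.9%) and 15.7% of all genes. KO spermatids lay above WT spermatids for 17.7% of X-linked genes and 11.4% of autosomal genes, and below them for 4.37% and 16.3%. The difference of steps had an unadjusted p under 0.05 for 30 X-linked genes (5.96%), 29 of them below 0, that is, with a smaller rise or larger fall in the KO. For autosomal genes the count was 207 (1.65%), 79 of them below 0. Of all genes tested, 48.6% had a difference below 0. On chromosome Y, Eif2s3y, a translation initiation factor subunit, stood at 42.2 and 47.6 FPKM in KO spermatids, against 10.9 and 14.6 FPKM in KO MI spermatocytes (log2 change 1.75, SE 0.31, adjusted p = 0.00057). The other 7 of 8 single-copy genes were not called. Over all 8 the median log2 change was 0.05 in the KO and 1.03 in the WT, where 4 rose. Zfy2, a zinc finger protein of the Y chromosome, stood at 10.4 and 18.6 FPKM in KO and 14.97 and 17.97 FPKM in WT spermatids, and at 6.21 and 11.7 FPKM in KO and 4.48 and 2.93 FPKM in WT MI spermatocytes; its difference of steps was -1.26 (SE 0.56, unadjusted p = 0.04).

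The difference of steps passed the adjusted test for 0 of 13099 genes (0.0%) by limma, and in every alternative fit the count was 0 as well. At an unadjusted p under 0.05 there were 242 (1.85%), 130 with a larger rise or smaller fall in the KO (0.992%) and 112 with the reverse (0.855%). The smallest p of a negative difference belonged to Usp51, at 2.5 and 2.38 FPKM in KO spermatids, against 5.91 and 9.7 FPKM in KO MI spermatocytes, with 4.12 and 3.01 FPKM in WT spermatids and 0.949 and 0.190 FPKM in WT MI spermatocytes. It fell in the KO and rose in the WT, with a difference of -2.90 (SE 0.52, unadjusted p = 7.7e-05). Prame, a germ line gene of the X chromosome, stood at 31.4 and 32.03 FPKM in KO spermatids, against 14.4 and 20.8 FPKM in KO MI spermatocytes, with 19.2 and 16.4 FPKM in WT spermatids and 0.581 and 0.735 FPKM in WT MI spermatocytes. Its WT MI libraries alone were under 1 FPKM, and the difference was -2.66 (SE 0.55, unadjusted p = 0.00027). Slc10a3, a solute carrier gene of the X chromosome, differed by -2.56 (SE 0.58, unadjusted p = 0.00062) and Speer4b by -1.78 (SE 0.46, unadjusted p = 0.0016).

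Among positive differences, Syndig1l had the smallest p. This membrane protein gene stood at 4.78 and 3.94 FPKM in KO spermatids, against 1.17 and 0.888 FPKM in KO MI spermatocytes, with 3.81 and 4.12 FPKM in WT spermatids and 5.24 and 7.65 FPKM in WT MI spermatocytes, a difference of 1.97 (SE 0.37, unadjusted p = 0.00012). Chdh, choline dehydrogenase, stood at 9.4 and 6.2 FPKM in KO spermatids, against 7.77 and 6.83 FPKM in KO MI spermatocytes, with 15.8 and 14.3 FPKM in WT spermatids and 53.3 and 65.9 FPKM in WT MI spermatocytes, a difference of 1.97 (SE 0.52, unadjusted p = 0.0019). The KO MI libraries were the lowest for Syndig1l and the WT MI libraries the highest for Chdh. Tmem86b, a lysoplasmalogen hydrolase, reached 7.36 and 8.43 FPKM in KO spermatids, against 0.690 and 0.218 FPKM in KO MI spermatocytes, with 3.01 and 0.821 FPKM in WT spermatids and 0.355 and 1.07 FPKM in WT MI spermatocytes, a difference of 1.94 (SE 0.52, unadjusted p = 0.0023).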

How the data were processed

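Poly(A)-selected RNA-seq libraries were made from Trizol total RNA of sorted spermatogenic cells, per the labels' protocols. The submitters' processing notes name STAR 2.7.6a, Cufflinks 2.2.1, Trim Galore 0.6.3, FastQC 0.10.1 and cutadapt, and the build mm10. They say nothing of the annotation, the gene filter or any further scaling (not given in the sources used). The authors deposited FPKM with 1 added, so 1 was subtracted. Of 13101 genes, 1 with a letter in a cell was left out. FPKM keeps no read depth, so counting error is unknown, and a value of 0 means only that the gene is listed at 0. FPKM is relative within a library, so changes read against the bulk of genes.

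Libraries were grouped by title. Genes at 1 FPKM or more in at least 2 libraries (13099) were fitted as log2(FPKM + 1) with limma 3.58.1 (trend, R 4.3.3), with 1 mean for each of 8 groups over all 16 libraries (8 residual degrees of freedom). The contrasts were spermatids minus MI spermatocytes in KO and in WT, and the difference of these steps. P-values are two-sided and Benjamini-Hochberg adjusted over all genes tested, with 0.05 as the threshold. A log2 change on this scale understates the change of low genes and, where a group is listed at 0, depends on the pseudocount. The fit was tested on simulated data, where it missed part of the true changes, the smaller ones above all. A gene or difference of steps that was not called is therefore not shown to be unchanged.

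The members and lists were chosen with earlier results of these data known. Named were Tex10, the 12 steepest rises and 12 steepest falls called without overlap at a mean of at least 5 FPKM, the 10 most abundant genes of each KO group, the 3 most abundant and 3 most changed members of each list (all in lists of up to 8), and for the difference of steps the 5 smallest p in each direction. Other names were chosen after their values were seen: list members given with a log2 change only, or named as the few exceptions of a list. In 1 case a listed symbol had matched a wrong synonym and was left out. Promoters came from RefSeq on GRCm38.p6 by symbol (10532 of 13099 tested genes matched). Alternatives were other pseudocounts, filters, scalings, variance models, replicate blocks and subsets of libraries, and each library left out in turn. Python 3.11.15, pandas 2.3.3, NumPy 2.4.6, SciPy 1.17.1 and matplotlib 3.10.9 were used.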

Additional observations from a re-analysis of the deposited data

Results flagged for a closer look

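In 5 flagged genes both KO spermatid libraries lay on one side of both KO MI spermatocyte libraries. The WT libraries moved the opposite way, again without overlap. The share of all genes tested with such opposite movement is not given here, so 5 is not a total. The difference of steps (KO step minus WT step, log2) was -2.90 for the deubiquitinase gene Usp51, -1.32 for the Y-linked Usp9y, 1.97 for Syndig1l, 2.10 for Pxdc1 and 1.84 for Fcer1g, a signalling chain of Fc receptors in myeloid cells. Tested across all genes by limma, 0 of the 5 passed adjustment, with unadjusted p = 7.7e-05, 0.03, 0.00012, 0.00086 and 0.023 in that order. Usp9y stood at 5.24 and 4.58 FPKM in KO spermatids, against 5.36 and 7.77 FPKM in KO MI spermatocytes, with 5.6 and 6.27 FPKM in WT spermatids and 3.34 and 1.84 FPKM in WT MI spermatocytes. Pxdc1 stood at 3.43 and 2.2 FPKM in KO spermatids, against 0.475 and 0.756 FPKM in KO MI spermatocytes, with 3.96 and 2.88 FPKM in WT spermatids and 5.62 and 8.81 FPKM in WT MI spermatocytes. Fcer1g stood at 2.42 and 5.57 FPKM in KO spermatids, against 0.406 and 1.39 FPKM in KO MI spermatocytes, with 0.352 and 0 FPKM in WT spermatids and 0.811 and 0.434 FPKM in WT MI spermatocytes. Its KO call was lost in several alternatives, with adjusted p = 0.26 without KO spermatid replicate 2, the library with more somatic transcript.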

How the results depend on the processing

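With 2 libraries per group, single libraries weigh heavily. Leaving out 1 library at a time, the KO step gave between 2425 and 3306 genes higher and between 1675 and 2570 lower (3090 and 2459 with all), the lowest counts without KO MI replicate 2 (higher) and KO spermatid replicate 1 (lower). The WT step gave between 2173 and 3216 higher and between 1583 and 2685 lower (2955 and 2588 with all). The WT count of falls was 1583 without WT MI replicate 1 and 1641 without WT spermatid replicate 2; the cause was not tested. Quantile normalization gave 2172 higher and 2741 lower in the KO, and turned the sign of the histone removal factor median (-0.16, with 0.60 otherwise), of Npm1 (-0.96) and of Rps25 (-0.0741); the cause was not tested. Fitting the 4 KO libraries alone gave 2784 higher and 1716 lower. A pseudocount of 0.1 gave 2763 and 2646, and one of 5 gave 3249 and 2013. Weighting each library by its own spread gave 2915 and 2161 in the KO, but 3720 and 3383 in the WT. The labels give no shared source for a replicate number, so the libraries were not taken as paired. Deviations of same-numbered libraries correlated at 0.418 between KO spermatids and KO MI spermatocytes, the highest of all pairs of groups, which reached down to -0.217 between KO spermatids and WT MI spermatocytes. A replicate block shared by all groups gave 3341 and 2673 in the KO and a block within genotype 3412 and 2796. The difference of steps gave 0 calls in every alternative, with a smallest adjusted p between 0.071 (pseudocount 5) and 1 and between 197 and 649 genes at an unadjusted p under 0.05. Depth is not known from FPKM, so no lower limit of detection could be given.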

Other observations

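Immediate early and stress genes, which respond to cell handling as well as to growth signals, fell in 4 of 22 cases and rose in 2 between KO MI spermatocytes and KO spermatids, against 18.8% and 23.6% of all genes tested, with a median log2 change of -0.81 in the KO and -1.13 in the WT. Jun stood at 1.44 and 13.6 FPKM in KO spermatids, against 34.8 and 36.4 FPKM in KO MI spermatocytes (log2 change -2.62, SE 0.68, adjusted p = 0.0071 by limma), and Egr1 at 5.6 and 28.7 FPKM in KO spermatids, against 59.99 and 94.4 FPKM in KO MI spermatocytes (log2 change -2.45, SE 0.66, adjusted p = 0.0089). The falls were 0 without KO spermatid replicate 1, 8 without KO spermatid replicate 2 and 1 without KO MI replicate 2. Jun and Egr1 were higher in KO spermatid replicate 2 than in replicate 1, and without replicate 1 their calls were lost (adjusted p = 0.11 for Jun and 0.14 for Egr1). Klf4, also known from postmeiotic germ cells, was higher, with 103 and 129.8 FPKM in KO spermatids, against 14.7 and 35.3 FPKM in KO MI spermatocytes (log2 change 2.29, SE 0.47, adjusted p = 0.0014), a call lost after quantile normalization (adjusted p = 0.070).

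Of 18 genes of apoptosis and p53 response, 6 fell and 0 rose, against 18.8% and 23.6% of all genes tested. The median was -0.42 in the KO and -0.48 in the WT. Pmaip1, which codes for the pro-apoptotic BH3 protein NOXA, stood at 0.173 and 0.690 FPKM in KO spermatids, against 9.25 and 6.84 FPKM in KO MI spermatocytes (log2 change -2.67, SE 0.30, adjusted p = 1.9e-05), with 0.182 and 0.0766 FPKM in WT spermatids and 1.9 and 1.19 FPKM in WT MI spermatocytes. The MI levels were higher in the KO without overlap and the spermatid levels were low in both genotypes. Its difference of steps was -1.51 (SE 0.43, unadjusted p = 0.0034). Mdm2, the ubiquitin ligase of p53, was high on both sides, with 264 and 208 FPKM in KO spermatids and 258 and 289.6 FPKM in KO MI spermatocytes, and was not called. Of 18 immune cell markers, C1qb and Fcer1g rose and 0 fell. C1qb, a complement gene of macrophages, stood at 5.57 and 10.2 FPKM in KO spermatids, against 0 and 1.03 FPKM in KO MI spermatocytes (log2 change 2.59, SE 0.55, adjusted p = 0.0019).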
